A study of Bos taurus with 2 samples.

Results

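Cluster 8 is one of the 15 cell clusters that the study drew from cultured bovine satellite cells, and it holds 1241 of 19096 cells. The study gave it the identity of PAX3-positive satellite cells and placed it at the root of both inferred myogenic trajectories, a placement not computed here. Its cells were found from the table of cluster averages that the authors deposited, because each average converts to a whole number of transcripts and these sums leave one possible cluster for every cell. Over 252240 pairs of a gene and a cluster, 0 sums differed from those of the deposited table after this assignment.

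The cells came from the longissimus muscle of 1 male Holstein calf aged 2 weeks and were isolated by pronase digestion and differential centrifugation, with no sorting on surface markers described. They were grown for 1 week in DMEM with 10% FBS before being loaded for single-cell RNA sequencing with the 10x Genomics 3′ chemistry. There was 1 condition and 2 libraries, called replicates 1 and 2, which were made from the same cells, so their spread is technical and says nothing of how animals vary. The platform counts unique molecular identifiers (UMIs), so that a value is a number of captured RNA molecules.

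Replicate 1 held 664 cluster 8 cells of 9939 and replicate 2 held 577 of 9157. These are shares of 6.68% (95% exact binomial interval 6.2 to 7.19%) and 6.30% (5.81 to 6.82%), and they differed by 0.380 percentage points (two-sided Fisher's exact test, p = 0.290, counting error only). The cluster carried 8828418 UMIs in replicate 1 and 8151149 in replicate 2, out of 145631299 and 137818568 in the libraries. Its median cell had 13158 UMIs and 3361 detected genes, against 14889 UMIs and 3609 genes over all cells, so its cells were slightly shallower than the whole culture. The range of 4247 to 40251 UMIs contained no cell under 2000 UMIs, whereas 1898 cells of the series fell there. Among the 8% of cells with the highest doublet scores in each library were 0.967% of the cluster 8 cells. A total of 27 barcodes occurred in both libraries across the series.

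Satellite cells are the resident stem cells of skeletal muscle and lie between the muscle fibre and its basement membrane. PAX3 and PAX7 are paired-box transcription factors of this lineage, MYF5 and MYOD1 are the factors of committed myoblasts, and MYOG is switched on when myoblasts leave the cell cycle to differentiate. Quiescent satellite cells and proliferating myoblasts differ in cell cycle genes, matrix production and protein synthesis, and cells put in culture generally enter the cycle.

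Levels below are UMIs of a gene per 10000 UMIs of the cells named, and where a pair of levels is given the first is replicate 1 and the second replicate 2. Log2 fold changes come with their standard errors from edgeR's quasi-likelihood fit of the summed UMIs. "Called" means a Benjamini-Hochberg adjusted p under 0.05 in that fit. Because the clusters were drawn on these same counts, calls describe the cluster and are no test that it differs, and all comparisons use the same cluster 8 cells. Against all other cells, 2955 of 13119 genes were called higher in cluster 8 (22.5%) and 3085 lower (23.5%). Against cluster 1, which follows it on the study's first trajectory, 1891 of 11194 genes were called higher (16.9%) and 1921 lower (17.2%). Against cluster 5, which follows it on the second, 1339 of 10948 genes were called higher (12.2%) and 1781 lower (16.3%), and with the library as a replicate block these became 2158 and 2521. DESeq2 called 642 higher and 1064 lower against cluster 5, and 1183 and 1215 against cluster 1. The median log2 fold change of all genes tested was 0.007, 0.002 and 0.006 in the 3 comparisons, and a list of genes is read below against these shares and medians.

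PAX3 (ENSBTAG00000009950), the marker behind the cluster's identity, stood at 0.0193 UMIs per 10000 in replicate 1 and 0.0368 in replicate 2. These levels rest on 17 and 30 UMIs, and their mean was the highest of the 15 clusters. Cluster 5 came second with 0.0173 and 0.0254, from 53 UMIs. The exact Poisson intervals of the pooled levels, 0.0203 to 0.0368 in cluster 8 and 0.0159 to 0.0278 in cluster 5, overlapped. PAX3 thus had its highest mean in cluster 8, but its order relative to cluster 5 was not resolved at this depth (log2 fold change 0.38 ± 0.38, not called). The intervals of clusters 7, 10, 13, 14 and 15, from at most 9 UMIs each, overlapped with that of cluster 8 as well. Set against all other cells, PAX3 differed by a log2 fold change of 0.95 in replicate 1 alone and 1.90 in replicate 2 alone, both on the side of cluster 8.

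A PAX3 UMI was captured in few cluster 8 cells. After each cell was thinned to 5000 UMIs, which leaves out 8 shallower cells of the cluster, 18 of 1233 cells had at least 1 UMI of PAX3, a share of 1.46% (95% exact binomial interval 0.867 to 2.30%). The same share was 0.854% in cluster 5 (0.468 to 1.43%) and 0.650% in cluster 1 (0.372 to 1.05%). Both intervals overlapped with that of cluster 8. In cluster 9 the share was 0.0926%, from 1 of 1080 cells (0.00234 to 0.515%). It was taken here as the background level, although free RNA was not measured. By replicate the share was 0.908% and 2.10% in cluster 8, 0.931% and 0.769% in cluster 5, and 0.704% and 0.592% in cluster 1. The order of clusters 8 and 5 in this share thus rested on replicate 2. Clusters 7 and 9 are the clusters named fibro-adipogenic. Without thinning the share was 3.38% of cluster 8 cells, 2.62% of cluster 5 cells, 1.52% of cluster 1 cells and 0.741% of cluster 9 cells, at median depths of 13158, 14502, 12929 and 23011 UMIs. The share rose with depth, so cells without a PAX3 UMI cannot be taken as cells without PAX3 expression.

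PAX7 (ENSBTAG00000014967), the other paired-box marker of satellite cells, gave 17 UMIs in the cluster, at 0.00680 and 0.0135 UMIs per 10000. Its level ranked 4th of the 15 clusters, and the difference from all other cells (log2 fold change 0.80 ± 0.39) was not called. A UMI of PAX7 was found in 0.243% of thinned cluster 8 cells and in 0 of 1080 cluster 9 cells, which allows a share of up to 0.278%, so PAX7 could not be told from background in single cells.

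MYF5 (ENSBTAG00000026972) was far better covered than either paired-box gene. It reached 1.64 and 1.49 UMIs per 10000 from 2663 UMIs, and a UMI was present in 44.4% of thinned cells (41.6 to 47.2%). Cluster 1 held 1.60 and 1.5, and its log2 fold change between the clusters was -0.02 ± 0.07, so clusters 8 and 1 did not differ in MYF5 beyond the spread of the libraries. Cluster 5 was lower at 1.21 and 1.26 (log2 fold change 0.33 ± 0.06). In cluster 9 the share of thinned cells was 4.17%, so the MYF5 signal of cluster 8 was well above that of cluster 9. The source of the MYF5 UMIs in cluster 9 was not tested.

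MYOD1 and MYOG, unlike MYF5, stood at the other end of the scale. MYOD1 was at 0.882 and 0.902 UMIs per 10000, rank 14 of the 15 clusters, against 5.30 and 5.07 in cluster 1 (log2 fold change -2.57 ± 0.06) and 1.91 and 1.93 in cluster 5 (-1.11 ± 0.05). A MYOD1 UMI was seen in 27.7% of thinned cluster 8 cells, 81.8% in cluster 1, 44.0% in cluster 5 and 13.4% in cluster 9. MYOG was at 0.116 and 0.0994, not told apart from cluster 11 at 0.104 and 0.115 at the bottom of the 15 clusters, while the myocyte cluster 12 had 18.1 and 19.2. For MYOG the difference from cluster 5 was not called (-0.15 ± 0.13), and both are close to the bottom of the scale. MYF5 at the level of cluster 1 together with MYOD1 far under it set cluster 8 apart from the myoblasts of cluster 1.

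**Figure D1:**
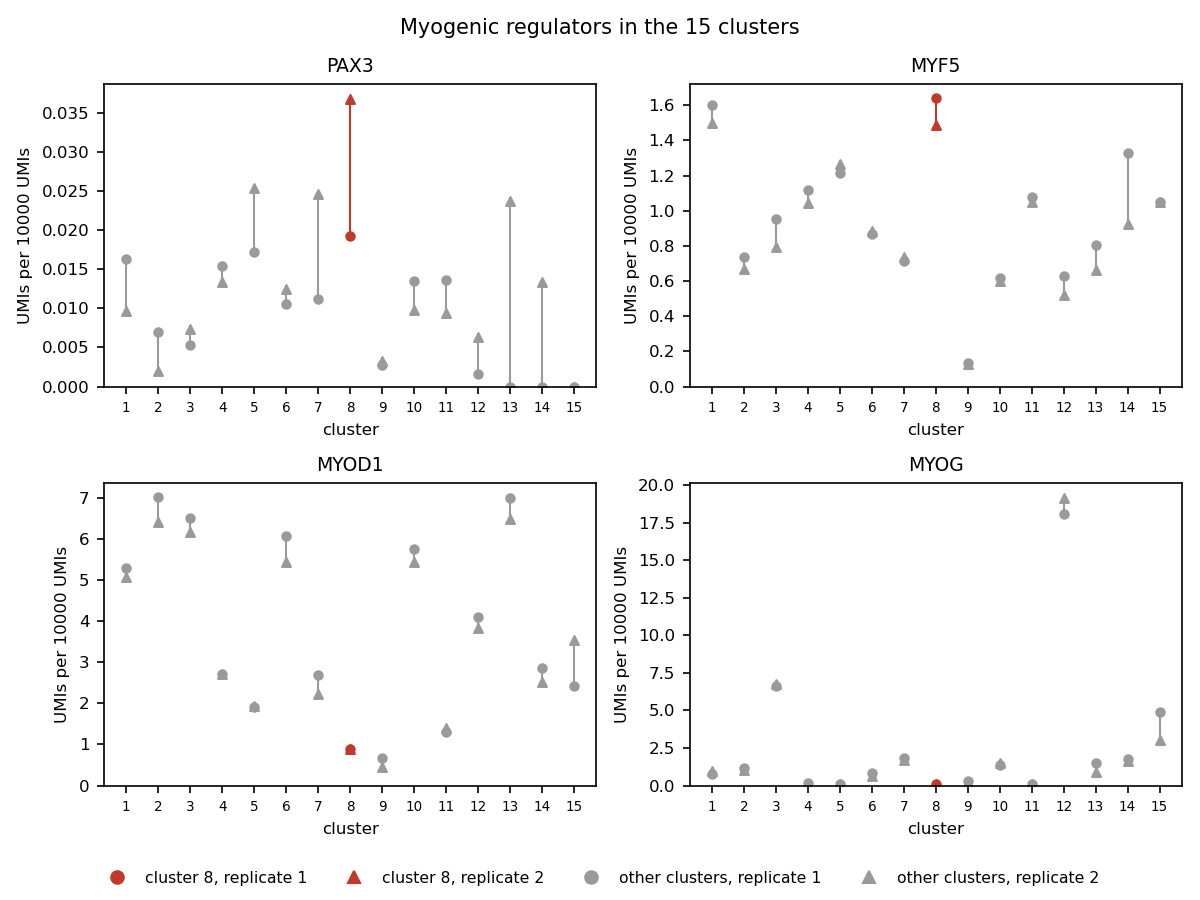
Levels of PAX3, MYF5, MYOD1 and MYOG in UMIs per 10000 UMIs (vertical axis) in each of the 15 clusters (horizontal axis), with a circle for replicate 1, a triangle for replicate 2 and a line joining them. Cluster 8, in red, has the highest mean for PAX3, at 0.0193 and 0.0368. It lies level with cluster 1 at the top for MYF5, and near the bottom for MYOD1 and MYOG.

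Of 30 tested regulators and surface markers of satellite cells and myoblasts, 6 were called higher than in all other cells, 14 lower and 10 were not called. Against cluster 1 the counts were 3 higher and 19 lower of 28, and against cluster 5 they were 4 and 9 of 26. CAV1, a membrane scaffold protein found on satellite cells, was at 2.61 and 2.67 against a mean of 1.68 in all other cells (log2 fold change 0.70 ± 0.04). ID2 and ID3, helix-loop-helix proteins that hold back the MYOD1 family, had their highest means of the 15 clusters, with ID3 at 3.61 and 3.40 against 2.58, although cluster 4, at 3.42 and 3.45, overlapped with it for ID3. Their relative ID1 went the other way, at 7.33 and 7.36 against 10.6 (-0.49 ± 0.03). Among the lower genes were the laminin receptor subunit ITGA7 (-0.92 ± 0.05), the receptor FGFR4 (-0.94 ± 0.06), the homeobox gene MEOX2 (-1.19 ± 0.05) and the intermediate filament gene DES (-2.25 ± 0.09). MYMK, the membrane activator of myoblast fusion, had 12 UMIs in the cluster.

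Muscle structure and contraction genes followed MYOG. Against all other cells 46 of 56 tested genes were called lower and 3 higher, with a median log2 fold change of -2.90. ACTC1, the cardiac alpha-actin that cultured myoblasts also make, was at 1.48 and 1.54 UMIs per 10000 against 16.2 and 17.1 in cluster 1 (-3.50 ± 0.05). MYLPF and MYH3, myosin genes of forming fibres, stood at -3.99 ± 0.06 and -4.05 ± 0.09 against all other cells. The broadly expressed tropomyosin gene TPM2 was among the higher genes, at 9.15 and 10.9 against 6.42 and 7.26 (0.60 ± 0.09). Against cluster 1 the list had 25 of 35 genes lower and 2 higher. Against cluster 5, 7 of 29 genes were called lower and 3 higher, with a median of -0.08, so that clusters 8 and 5 lay close together on this list.

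Markers of the other cell types that muscle tissue could contribute were mostly at or near 0, with the exceptions named here. The summed endothelial list gave 0.0102 and 0.0147 UMIs per 10000 in the 2 replicates, led by VWF with 10 UMIs, while CDH5 and KDR had 2 UMIs each and PECAM1 had 1. The immune list gave 0.0283 and 0.0270, led by CD68 with 32 UMIs, and PTPRC and CSF1R had 0, which allows up to 3 UMIs. SOX10 and FOXD3, transcription factors of Schwann and other glial cells, had 0 UMIs, and the list's 0.280 and 0.287 came mostly from 454 UMIs of S100B. The pericyte and smooth muscle list gave 11.7 in each replicate against 12.5 and 12.3 in all other cells, with the smooth muscle actin ACTA2 leading it at 9.32 and 8.91, the highest mean of the 15 clusters. Of its 10 tested members 5 were called higher than in all other cells and 1, DES, was lower, with a median log2 fold change of 0.54. The higher genes were ACTA2 (0.52 ± 0.04), NOTCH3 (0.92 ± 0.05), CNN1 (0.79 ± 0.08), TAGLN (0.56 ± 0.10) and KCNJ8 (1.65 ± 0.50), whose call was lost under 4 alternatives. Against cluster 1 the counts were 5 higher and 1 lower of 7, and against cluster 5 they were 3 and 1 of 7. RGS5 had 0 UMIs and MCAM had 1. The part of these cell types in the results below was not tested.

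The fibro-adipogenic list needs more detail because it shares genes with the matrix lists. Its sum was 182 and 176 UMIs per 10000 in cluster 8, second of the 15 clusters, and COL1A1 was its most abundant gene. Of 19 tested members 7 were called higher and 3 lower, and the 7 were COL1A1, COL3A1, DCN, LUM, THY1, GSN and TNFAIP6, while the median log2 fold change was -0.04. All other cells include clusters 7 and 9, both fibro-adipogenic by the study's naming, and cluster 7 had the highest sum of the list at 345. Cluster 7 was shallow, with a median of 1389 UMIs a cell. It carried 0.746% of all UMIs, so it weighed little in the sums of all other cells. Against cluster 1 the list had 10 of 13 genes called higher and 1 lower with a median of 1.02, and against cluster 5 it had 9 of 12 higher and 0 lower with a median of 0.66. The defining receptor PDGFRA was at 0.252 and 0.282 UMIs per 10000, against a mean of 0.316 in all other cells (-0.20 ± 0.07, not called), 1.48 in cluster 7 and 1.58 in cluster 9. With the library as a replicate block the same value was called lower, as it was under 4 of the other alternatives. Against cluster 1, at 0.125 and 0.132, PDGFRA was called higher in cluster 8 (1.02 ± 0.10), and against cluster 5, at 0.230 and 0.208, it was not called (0.28 ± 0.10) except with the block, where it was higher. A UMI of PDGFRA was found in 12.2% of thinned cluster 8 cells, 10.1% in cluster 5, 6.22% in cluster 1 and 51.0% in cluster 9. PDGFRB had 8 UMIs, CD34 had 2 and PPARG had 70. PDGFRA in cluster 8 thus lay above cluster 1 and far under clusters 7 and 9.

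Cell cycle genes were low in cluster 8 throughout. The 43 genes of the S phase list, which covers DNA replication, summed to 10.6 and 10.3 UMIs per 10000, against 27.8 and 27.2 in all other cells, and 42 were called lower and 0 higher. The 54 genes of the G2/M list, which covers chromosome condensation and the spindle, summed to 14.9 in both replicates, against 74.4 and 72.5, and all 54 were called lower. That G2/M sum was the lowest of the 15 clusters, and the S phase sum was the second lowest after cluster 12. MKI67, the common proliferation marker, was at 0.219 and 0.286 against 3.40 and 3.32 in all other cells (-3.69 ± 0.10), and TOP2A, which untangles replicated DNA, at 0.164 and 0.153 against 2.87 and 2.45 (-4.02 ± 0.11). Further spindle and chromosome genes with large differences were ASPM (-4.23), NUSAP1 (-4.19), CCNB1 (-3.35) and CENPF (-3.33).

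Cluster 5 carried more cycle transcripts than cluster 8. Its S phase sum was 29.1, near the 27.8 and 27.2 of all other cells. Its G2/M sum, 33.1 and 32.7, lay under their 74.4 and 72.5. In cluster 8, 43 of 43 S phase genes and 49 of 54 G2/M genes were lower than in cluster 5. RRM2, a subunit of ribonucleotide reductase, was at 0.178 and 0.174 in cluster 8 against 1.2 and 1.23 in cluster 5 (-2.79 ± 0.07). PCNA, the sliding clamp of DNA polymerases, was at 0.664 and 0.642 against 2.46 and 2.58 (-1.95 ± 0.06), and the replication genes UHRF1, MCM3 and MCM5 followed with -2.67, -2.12 and -1.90.

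Cluster 1 was as poor in S phase transcripts as cluster 8, at a sum of 10.8, with 7 genes called higher and 6 lower of 42 and a median of 0.07. On the G2/M list 29 of 54 genes were lower in cluster 8 than in cluster 1 and 0 higher, with a median of -0.44. This difference depended on which cells were taken, because with clusters found anew by Louvain clustering the G2/M median against the counterpart of cluster 1 was 0.39 and the S phase median 0.90. The Louvain counterpart of cluster 8 held 1775 cells, of which 62.6% were deposited cluster 8 cells and 30.5% came from cluster 5. The low cycle level of cluster 8 against all other cells kept its direction there, with list medians of -0.63 and -1.996 for S phase and G2/M. With the deposited clusters these medians were -1.35 and -2.36, so both differences were smaller under Louvain clustering.

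**Figure D2:**
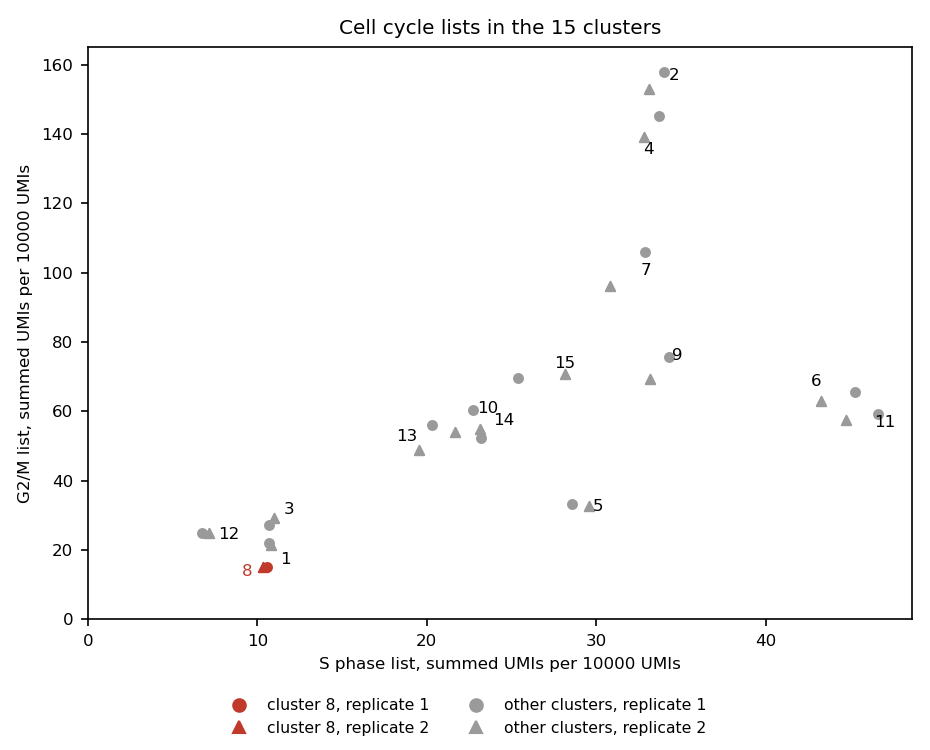
Summed levels of the S phase list (horizontal axis) and the G2/M list (vertical axis), in UMIs per 10000 UMIs, for the 15 clusters in each replicate, with the cluster numbers beside the points. Cluster 8, in red, lies lowest on the G2/M axis at 14.9 and near clusters 1, 3 and 12 on the S phase axis, while cluster 5 sits at an S phase sum of 29.1.

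With every cell thinned to 5000 UMIs, 23 of 1233 cluster 8 cells (1.87%) reached the median S phase sum of cluster 9, and 13 (1.05%) reached its median G2/M sum. In cluster 1 these shares were 2.24% and 3.29%, and in cluster 5 they were 37.6% and 9.15%. A UMI of MKI67 was present in 10.7% of thinned cluster 8 cells, 17.9% in cluster 1, 28.8% in cluster 5 and 62.2% in cluster 9. Of the cluster 9 cells themselves, 52.1% and 50.4% reached these medians. Since the clusters were drawn on these same counts, the low shares in cluster 8 describe the grouping.

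Cell cycle inhibitors were not uniformly high. CDKN1C, the p57 inhibitor that rises as myoblasts withdraw, was at 0.867 and 0.847 UMIs per 10000 against 9.95 and 10.6 in cluster 1 (-3.62 ± 0.05), although clusters 8 and 1 had similar S phase sums. Its level in cluster 5, 0.685 and 0.775, was close to that of cluster 8 (0.23 ± 0.07, not called). It was called higher in cluster 8 with the library as a replicate block (0.23), without TMM scaling (0.23) and with the highest doublet scores left out (0.53). CDKN1A, the p21 inhibitor, was at 1.92 and 1.85 against 1.04 and 0.958 in cluster 5 (0.92 ± 0.06). Its call against all other cells was lost under Louvain clustering and with equal weights for the other clusters, as given below. GADD45A, a growth arrest and DNA damage gene, was at its highest of the 15 clusters at 3.17 and 3.07 (0.74 ± 0.04 against all other cells), and MXD4, a MYC antagonist, was at 1.34 in both (0.95 ± 0.05). Over the list of inhibitors, D cyclins and arrest genes, 10 of 27 were called higher and 8 lower than in all other cells, 7 and 8 of 26 against cluster 1, and 10 and 4 of 26 against cluster 5, and CCND3 was among the lower genes (-0.86 ± 0.05).

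Most genes of the integrated stress response were higher in cluster 8 than in all other cells. In this response, kinases that phosphorylate the initiation factor eIF2 slow general translation and let the transcription factor ATF4 be made, which switches on genes for amino acid supply and stress survival. The 26 genes of this list summed to 25.3 and 25.5 UMIs per 10000 in cluster 8, the highest of the 15 clusters, against 14.8 and 14.9 in all other cells and 19.3 in cluster 4, the next in order. Against all other cells 21 of 26 were called higher and 2 lower, with a median of 0.76. Against cluster 1 the counts were 15 and 2, and against cluster 5 they were 15 and 1, with medians of 0.50 and 0.32.

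NUPR1 (ENSBTAG00000018016), a small stress-induced chromatin protein, had the largest positive log2 fold change of the genes named by rule against all other cells. It was at 1.24 and 1.21 UMIs per 10000, against a mean of 0.151 in all other cells (3.07 ± 0.05), 0.300 in cluster 1 (2.00 ± 0.06) and 0.281 in cluster 5 (2.12 ± 0.09). The libraries lay close together and far from each compared level. A NUPR1 UMI was found in 37.0% of thinned cluster 8 cells (34.3 to 39.8%), against 11.2% in cluster 1, 11.7% in cluster 5 and 6.85% in cluster 9.

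The transcription factors of the response differed to unequal degrees. ATF5, itself translated when eIF2 is phosphorylated, was at 3.35 and 3.31 against a mean of 0.992 in all other cells (1.79 ± 0.04), and its UMIs were found in 70.9% of thinned cells compared with 45.1% in cluster 1 and 48.0% in cluster 5. DDIT3, which encodes CHOP, was at 1.34 and 1.41 against 0.507 and 0.514 (1.48 ± 0.04). ATF4 was at 7.81 and 7.91 against 5.05 and 5.15, a smaller difference (0.67 ± 0.03). It narrowed to 0.54 ± 0.04 against cluster 1 and 0.22 ± 0.04 against cluster 5. ATF3, a further member of this family, was slightly lower than in all other cells (-0.29 ± 0.05).

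Several effectors named here fall under the level of 0.5 UMIs per 10000 and were chosen after their values had been seen. VLDLR, a lipoprotein receptor, was at 0.472 and 0.521 against 0.115 and 0.126 (2.09 ± 0.08). SESN2, a restrainer of mTORC1, was at 0.340 and 0.319 against 0.0882 and 0.101 (1.85 ± 0.09), and TRIB3, a pseudokinase that feeds back on ATF4, at 0.352 and 0.388 against 0.115 and 0.122 (1.69 ± 0.07). HMOX1, the haem-degrading enzyme, reached 1.39 and 1.34 against 0.745 and 0.709 (0.95 ± 0.05). ASNS, asparagine synthetase, was higher than in all other cells (0.47 ± 0.04) but lower than in cluster 1 (-0.28 ± 0.05), so not every ATF4 target was highest in cluster 8.

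**Figure D3:**
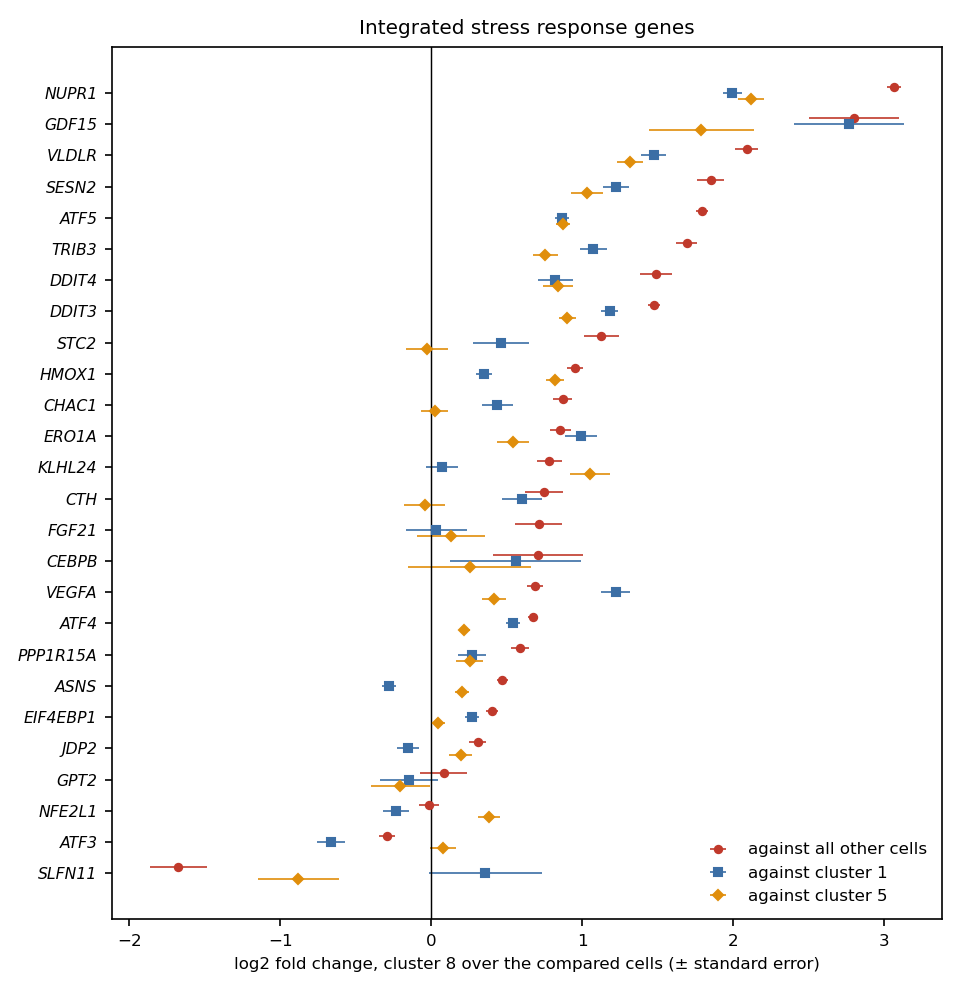
Log2 fold changes of the 26 integrated stress response genes (horizontal axis, bars are standard errors) for cluster 8 against all other cells (circles), cluster 1 (squares) and cluster 5 (diamonds). NUPR1 lies at 3.07, 2.00 and 2.12, and most genes lie to the right of 0 in each comparison, with SLFN11 and ATF3 lowest against all other cells.

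Genes of amino acid supply gave a mixed picture. The enzymes that make serine from glycolytic intermediates were all higher, with PHGDH at 8.70 and 8.74 against 4.29 and 4.45 in all other cells (1.04 ± 0.04), PSAT1 at 3.39 and 3.66 against 1.38 and 1.51 (1.33 ± 0.06) and PSPH at 3.49 and 3.36 against 1.71 and 1.65 (1.08 ± 0.04). Each of these 3 genes had its highest level of the 15 clusters in cluster 8. ALDH1L2, the mitochondrial enzyme that recovers tetrahydrofolate, was at 2.14 and 2.11 against 0.622 and 0.619 (1.82 ± 0.04), and PYCR1, the last step of proline synthesis, at 1.85 and 1.72 against 1.02 and 0.937 (0.92 ± 0.07). MTHFD1, a cytosolic one-carbon enzyme, and TYMS, thymidylate synthase, were lower at -0.97 ± 0.05 and -0.98 ± 0.05. Over the whole serine, glycine and one-carbon list 8 of 20 genes were called higher, 5 lower and 7 were not called. The counts were 9 higher and 3 lower of 19 against cluster 1, but 5 higher and 6 lower of 19 against cluster 5.

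Amino acid transporter genes were called higher for 14 of 24 tested and lower for 1, with 11 and 1 of 22 against cluster 1 and 7 and 0 of 22 against cluster 5. SLC3A2, the heavy chain shared by several transporters, was at 3.09 and 3.25 against 1.46 and 1.57 (1.11 ± 0.05). Its partner SLC7A5 stood at 0.56 ± 0.06 and the glutamine carriers SLC1A5 and SLC38A2 at 0.49 ± 0.06 and 0.41 ± 0.05. SLC6A9, a glycine transporter chosen after its values had been seen, was at 0.441 and 0.439 against 0.112 and 0.116 (2.00 ± 0.06). Of 22 cytosolic aminoacyl-tRNA synthetase and cofactor genes 11 were higher and 7 lower, among them WARS for tryptophan at 3.35 and 3.5 against 1.2 and 1.23 (1.55 ± 0.04), GARS for glycine at 7.05 and 6.89 against 3.16 and 3.05 (1.22 ± 0.04) and VARS for valine at 0.919 and 0.896 against 1.40 and 1.42 (-0.59 ± 0.04). The excess of higher synthetase genes was not seen against the single clusters, with 4 higher and 5 lower of 22 against cluster 1, 3 and 8 of 22 against cluster 5, and a median of 0.02 in each.

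For the unfolded protein response of the endoplasmic reticulum the counts differed between the comparisons. Of 27 tested genes 14 were called higher and 4 lower than in all other cells, with a median of 0.21, against cluster 1 the counts were 15 and 1, and against cluster 5 they were 7 and 6 with a median of 0.01. HSPA5, the main chaperone of this compartment, was at 10.8 and 10.6 against 6.15 and 6.05 (0.86 ± 0.04), and HERPUD1, a part of its degradation machinery, at 2.09 and 2.02 against 0.992 and 0.978 (1.11 ± 0.04). MANF, a secreted protein that is normally induced together with HSPA5, was lower at 2.27 and 2.26 against 4.05 and 3.93 (-0.77 ± 0.04). The cytosolic heat shock genes HSPA8 and HSP90AA1 were lower than in all other cells. HSPA8 was at 10.8 and 10.9 against 19.2 and 18.9 (-0.76 ± 0.03). HSP90AA1 was at 27.4 and 25.9 against 37.8 and 36.0 (-0.42 ± 0.05). In the list of immediate early and heat shock genes 18 of 35 were called lower and 5 higher, with 14 and 6 of 33 against cluster 1 and 12 and 2 of 32 against cluster 5, and the growth factor response gene EGR1 was lower too (-0.81 ± 0.08).

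Matrix genes formed the other large group. The collagen list summed to 265 and 264 UMIs per 10000 in cluster 8, against 120 and 124 in all other cells, 159 in cluster 1 and 167 in cluster 5. Cluster 7 alone was higher, at 641. Of 21 tested collagen genes 15 were called higher and 2 lower than in all other cells, 17 and 3 of 21 against cluster 1, and 14 and 0 of 20 against cluster 5. COL1A1 (ENSBTAG00000013103) was at 84.3 and 82.2 against a mean of 30.1 in all other cells (1.51 ± 0.04), 39.5 and 39.2 in cluster 1 (1.05 ± 0.04) and 47.8 and 46.7 in cluster 5 (0.81 ± 0.04). Its partner chain COL1A2, at 89.5 and 92.0 against 45.7 and 48.3 (1.00 ± 0.04), and COL3A1, at 71.2 and 68.3 against 32.4 and 32.9 (1.14 ± 0.04), shared this pattern. Type I collagen is the main fibre of connective tissue, and its COL1A1 chain was captured in nearly all cells of clusters 8, 1, 5 and 9, so the share of cells with a UMI is saturated and says little about the cluster.

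The enzymes that fold, modify and crosslink collagen went with it. Of 24 tested, 21 were called higher and 0 lower, with a median of 0.58. The counts were 21 and 0 of 23 against cluster 1 and 16 and 1 of 23 against cluster 5, and LOX, LOXL2, P4HA2 and SERPINH1 were also called higher against each of clusters 1 and 5. LOX, which starts crosslinks outside the cell, was at 3.42 and 3.48 against 1.26 and 1.35 (1.45 ± 0.05), the highest of the 15 clusters, and LOXL2 at 1.76 and 1.68 against 0.686 and 0.695 (1.36 ± 0.05). P4HA2, a prolyl hydroxylase subunit, was at 5.50 and 5.68 against 3.19 and 3.22 (0.85 ± 0.03), and SERPINH1, the collagen chaperone, at 17.3 and 17.6 against 11 and 11.3 (0.69 ± 0.03). LARP6, which binds collagen messenger RNA, was at 1.19 and 1.15 against 0.359 and 0.358 (1.75 ± 0.05).

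Among the remaining matrix genes 26 of 41 were called higher and 8 lower than in all other cells, 24 and 7 of 41 against cluster 1, and 20 and 1 of 40 against cluster 5. The small proteoglycans that bind collagen fibrils had their highest means of the 15 clusters, although cluster 7, at 3.21 and 4.84, overlapped with it for OGN. DCN was at 15.5 and 14.5 against 6.53 and 6.37 (1.26 ± 0.05), LUM at 5.80 and 5.52 against 2.62 in both (1.16 ± 0.04) and OGN at 4.38 and 4.03 against 1.84 and 1.79 (1.26 ± 0.06). Fibronectin (FN1) stood at 0.96 ± 0.04, fibrillin (FBN1) at 0.99 ± 0.04 and tenascin C (TNC) at 0.91 ± 0.05. THBS1, the matricellular thrombospondin, was lower at 2.42 and 2.52 against 5.39 and 5.28 (-1.06 ± 0.04). The fibro-adipogenic list moved with these matrix genes against clusters 1 and 5, as given above, and its part in them was not tested.

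**Figure D4:**
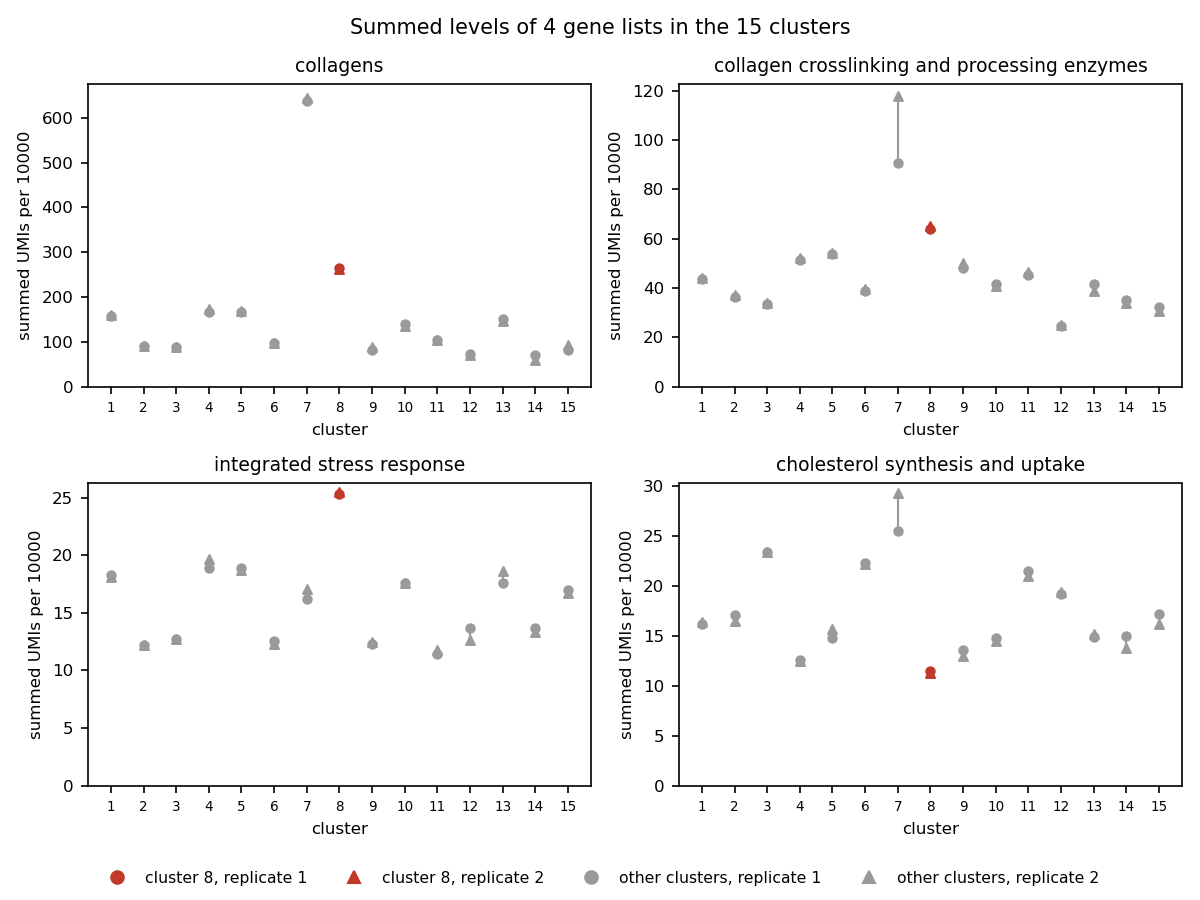
Summed levels of the collagen, collagen enzyme, integrated stress response and cholesterol lists in UMIs per 10000 UMIs (vertical axes) in each of the 15 clusters, circles for replicate 1 and triangles for replicate 2. Cluster 8, in red, is second to cluster 7 on both collagen panels, first on the stress response panel at 25.3 and 25.5, and last on the cholesterol panel at 11.5 and 11.3.

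Cholesterol synthesis was at its lowest of the 15 clusters in cluster 8, with a summed list level of 11.5 and 11.3 UMIs per 10000 against 17.6 and 17.5 in all other cells. Of 28 tested genes 21 were called lower and 3 higher, and the counts were 19 and 2 of 26 against cluster 1 and 17 and 3 of 26 against cluster 5. HMGCS1, an early enzyme of the pathway, was at 1.67 in both replicates against 3.69 and 3.57 (-1.07 ± 0.04), IDI1 at 0.608 and 0.645 against 1.36 and 1.32 (-1.04 ± 0.05) and MVD at 0.257 and 0.256 against 0.568 and 0.580 (-1.11 ± 0.05). The genes involved thus came from successive steps of the mevalonate pathway, and their libraries did not overlap with those of the compared cells.

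Genes of the insulin-like growth factor axis were called in both directions. Against all other cells 5 of 15 were higher (33.3%) and 3 lower (20%), not far from the 22.5% and 23.5% of all genes. The counts were 4 and 4 of 13 against cluster 1, and 5 and 2 of 14 against cluster 5. IGFBP5, a binding protein of differentiating myoblasts and of matrix, was at 2.36 and 2.28 UMIs per 10000 against 0.279 and 0.336 in cluster 1 (2.88 ± 0.08), the largest positive value among the genes named there, and against 1.90 and 1.95 in cluster 5 (0.27 ± 0.05). IGFBP2, IGFBP4 and IGFBP6 were higher than in all other cells at 1.22 ± 0.04, 1.03 ± 0.06 and 0.94 ± 0.04. IGFBP3 was lower at 0.581 and 0.548 against 1.56 and 1.54 (-1.41 ± 0.05). IGF2, the growth factor itself, was at 2.26 and 3.65 against 8.88 and 11.3 (-1.73 ± 0.23), and it was higher in replicate 2 in both groups of cells.

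Among Wnt pathway genes 8 of 29 were called higher than in all other cells (27.6%) and 6 lower (20.7%). The shares over all genes were close, at 22.5% and 23.5%. Against cluster 1, where 16.9% of all genes were higher, 12 of 22 were higher and 3 lower with a median of 0.62, and against cluster 5 the counts were 4 and 2 of 23. TCF7L2, a transcription factor at the end of the pathway, was at 0.908 and 0.869 against 0.405 and 0.382 (1.22 ± 0.06), and the ligand gene WNT5B at 0.673 and 0.683 against 0.313 and 0.326 (1.13 ± 0.05). Genes tied to satellite cell quiescence were called higher than in all other cells for 7 of 22 (31.8%) and lower for 4 (18.2%). These shares were also not far from those of all genes. Against cluster 1 the counts were 5 higher and 7 lower of 18 with a median of -0.30, and against cluster 5 they were 6 and 1 of 18. The summed list was nevertheless higher in cluster 8, at 21.1 and 22.1 UMIs per 10000, than in cluster 1, at 17.98 and 18.1. NOTCH3, a Notch receptor kept by quiescent cells, was higher as given above, while the Notch target HES1 was lower (-0.32 ± 0.10). The HES1 call was lost under Louvain clustering, where the fold change was about as large.

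Some of the genes that stood highest over all other cells belong to none of the lists. SERPINF1, a secreted anti-angiogenic serpin, was at 1.85 and 1.93 against 0.297 and 0.318 (2.67 ± 0.05), and its UMIs occurred in 49.7% of thinned cells compared with 21.5% in cluster 1 and 19.9% in cluster 5. SAT1, the enzyme that starts polyamine breakdown, was at 2.32 and 1.93 against 0.505 and 0.490 (2.14 ± 0.10). GJA1, the gap junction protein connexin 43, was at 2.53 and 2.46 against 0.698 and 0.715 (1.87 ± 0.04). PRSS23, a secreted serine protease, was at 2.68 and 2.43 against 0.700 and 0.720 (1.90 ± 0.06) and separated clusters 8 and 1 even more (2.67 ± 0.07). SYT4 and TNFRSF6B followed with 1.79 ± 0.05 and 1.61 ± 0.07.

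Further genes were named for their values against a single cluster, although most were also called in the other comparisons. FGF7, a growth factor for epithelia, was at 1.60 and 1.59 against 0.375 and 0.345 in cluster 1 (2.12 ± 0.07) and was higher than in all other cells (0.68 ± 0.04), but it was lower than in cluster 5, at 1.96 and 1.88 (-0.27 ± 0.05). NDRG1, a stress and differentiation gene, and ITGA5, a fibronectin receptor subunit, stood at 1.67 ± 0.06 and 1.66 ± 0.06 against cluster 1. NDRG1 was also higher than in all other cells (1.52 ± 0.04) and than in cluster 5 (0.47 ± 0.05), and ITGA5 was called higher there by less (0.16 ± 0.04 and 0.29 ± 0.06), with its direction against all other cells reversed under Louvain clustering (-0.09) and under equal weights for the other clusters (-0.45). On the lower side against cluster 1, after CDKN1C and ACTC1, came FITM1, SGCA and NEB, genes of muscle lipid storage, the sarcoglycan complex and the thin filament, with -3.07, -3.06 and -3.04. GSTM1, a glutathione transferase, was among the 6 genes with the largest positive values against cluster 5 (0.96 ± 0.08), and it was higher than in all other cells (1.44 ± 0.07) and in cluster 1 (0.76 ± 0.07) too.

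The stress response sum was more even over the cells of cluster 8 than over those of clusters 1 and 5. With 5000 UMIs a cell, the middle 90% of cluster 8 cells had 12 to 40 stress response UMIs per 10000 around a median of 26, against 4 to 34 around 18 in cluster 1 and 6 to 34 around 18 in cluster 5. The ratio of variance to mean of these counts was 1.54 in cluster 8, 2.34 in cluster 1 and 2.08 in cluster 5, and cluster 9 was as even as cluster 8 at 1.53. The collagen sum ran from 160 to 386 around 258 in cluster 8, 60 to 266 around 148 in cluster 1 and 80 to 264 around 160 in cluster 5. Both lists were thus shifted over most cells and not in a few. Since clusters were drawn on these genes, this evenness is a description of the grouping.

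**Figure D5:**
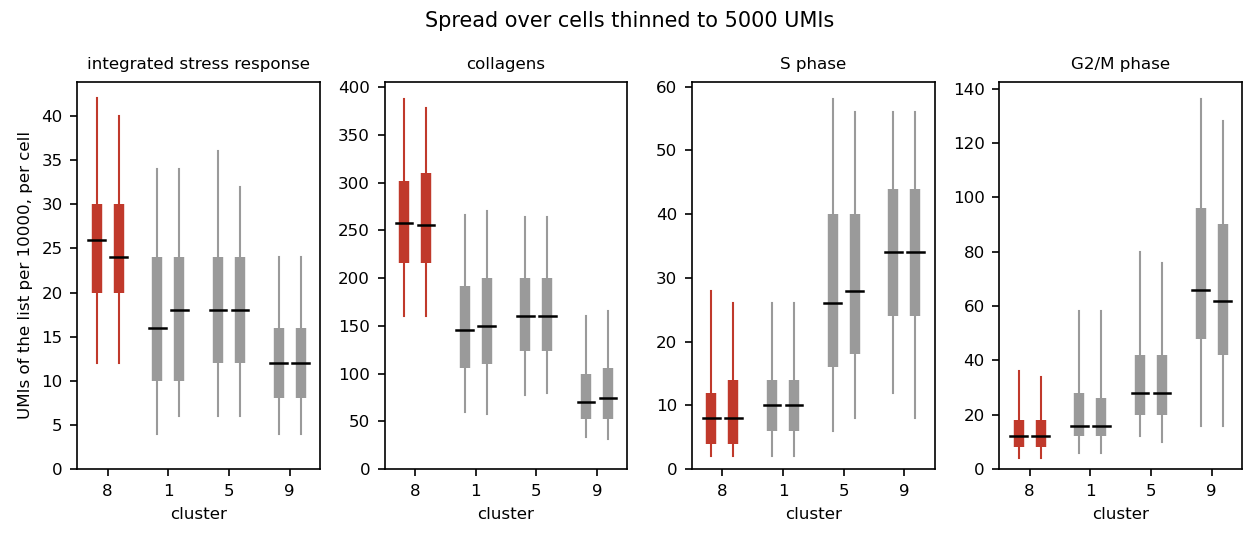
Summed list UMIs per 10000 in single cells thinned to 5000 UMIs (vertical axes) for clusters 8, 1, 5 and 9, with the left bar of each pair for replicate 1 and the right for replicate 2. Thick bars span the middle 50% of cells, thin lines the middle 90%, and black marks are medians. Cluster 8, in red, is shifted up for stress response and collagen genes and down for G2/M genes. Its S phase sums lie near those of cluster 1 and under those of clusters 5 and 9.

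Across the thinned cells of cluster 8 the Spearman correlation of the collagen sum with the sum of the other matrix genes was 0.456 in 661 cells of replicate 1 and 0.427 in 572 cells of replicate 2. The stress response sum had correlations of 0.153 and 0.222 with the collagen sum and of 0.083 and 0.131 with the serine and one-carbon sum. The S phase and G2/M sums correlated at 0.294 and 0.308, and the G2/M sum had correlations of -0.183 and -0.172 with the collagen sum and of -0.197 and -0.154 with the other matrix genes. Cells of a library share their preparation, and at this depth counting noise lowers such values, so they are given as descriptions.

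In the space of 10 principal components, 85.7% of the 30 nearest neighbours of cluster 8 cells were in the cluster itself, 7.35% were in cluster 5 and 5.76% in cluster 1. Seen from the other side, 5.99% of the neighbours of cluster 5 cells and 2.89% of those of cluster 1 cells were cluster 8 cells. For clusters 2, 3, 6, 11, 12, 13 and 15 this value was 0%. Neighbours outside cluster 8 lay mostly in cluster 5, whose S phase sum was higher, and in the MYF5-rich cluster 1. The MYOG-rich clusters 3 and 12 had 0% of them. The study drew its clusters from a nearest-neighbour graph of these same counts, so a high own share is built into the grouping. Cluster 11 had the lowest own share, 73.2%, and cluster 7 the highest, 98.6%. These shares are thus descriptions, and whether the clusters border each other apart from how they were drawn was not tested.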

How the data were processed

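Alignment to the ARS-UCD1.2 assembly, cell calling and merging of both libraries were done by the authors with Cell Ranger 3.0.2, as named in the submitters' processing notes. They deposited whole-number UMI counts for 21867 genes in 19096 cells, not normalized but counted after reads were thinned to the same mapped reads per cell in both libraries. They also deposited, per gene and cluster, an average UMI count, a fold change and a p-value, of which only the averages were used here, to find the cluster of each cell.

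UMIs were summed over cells per library and cluster, as 2 sums against 2, and fitted with edgeR 4.0.16 (TMM, filterByExpr, quasi-likelihood, Benjamini-Hochberg threshold 0.05). The rule for named genes took the genes the study uses for cluster identity, the 12 largest differences per direction against all other cells and the 6 per direction against clusters 1 and 5 (called, same direction in both libraries, at least 1 UMI per 10000 in the higher group), and members of the gene lists (28 with members at hand) at 0.5 UMIs per 10000 or more, with cell type markers at any level. The members, lists and rule were chosen with earlier results of these data known. Each library gave a sum to both sides of a comparison, which pairs them by library number, and the log2 ratios of replicate 1 to replicate 2 correlated at 0.557, 0.410 and 0.399 between cluster 8 and all other cells, cluster 1 and cluster 5 (9384, 9328 and 9306 genes).

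Cells were thinned to 5000 UMIs for shares and spreads. Intervals are exact at 95%, and intervals and the limit of 3 counts for a 0 cover counting error only. Alternatives were DESeq2 1.42.0, no filter on low counts, library sizes without TMM, the library as a block, each library alone, equal weight for the other clusters, cells under 2000 UMIs left out, cells with the 8% highest Scrublet scores left out, and Louvain clustering on 10 principal components (scanpy 1.11.5). The last 2 were adapted after the data were seen, since Scrublet's own threshold called 0 cells and 1 cell, and since clusters 8 and 5 shared a best match before clusters were matched one to one. In simulated counts with 200 genes changed 3-fold, the fit recovered 83.0% against all other cells (13064 genes), 94.5% against cluster 1 (11117 genes) and 94.5% against cluster 5 (10903 genes). Of the calls 4.05%, 5.03% and 3.57% were false. The simulated sums were drawn independently with a fixed dispersion for all genes, unlike the data, and far fewer genes were changed than were called. These rates are thus not error rates of the fit to the data. Doublets were kept in the values reported, since no removal is described. One marker of the cell type lists is not reported here.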

Additional observations from a re-analysis of the deposited data

How the results depend on the processing

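Counts of called genes moved by more than 1.5 times under 2 alternatives. DESeq2 called 1183 genes higher and 1215 lower against cluster 1 and 642 higher and 1064 lower against cluster 5, and the library as a replicate block raised the count higher against cluster 5 to 2158. Of these DESeq2 calls 1183, 1213, 642 and 1064 were also calls of the edgeR fit, and the block kept all 1339 genes called higher against cluster 5. The cause was not tested. The block moved no other count by 1.5 times, and apart from PDGFRA and CDKN1C it changed the call of 2 of the genes named, MCAM and S100B, both lower with it. The called genes of all 3 comparisons had the same direction in each library alone, but they were called on the sums of these libraries, so this is no sign of stability. Of 1317 tested values of single genes under the alternatives, 1286 kept their direction and call, 16 became called, 12 lost the call and 3 reversed. Clusters 8, 1 and 5 held no cell under 2000 UMIs. Leaving such cells out thus could not change the 24 values against cluster 1 and the 26 against cluster 5. Genes were also named in part for large differences in these data, so this tally is no sign of stability either. Of 350 values from a single library, which have no test, 172 moved by more than the standard error. List medians depended more on the setting. Of 28 medians against all other cells, 23 were counted as moved under Louvain clustering and 19 with other clusters weighted equally. Without the filter 15 moved, and without TMM 11. With the block all 28 stayed the same, with DESeq2 25, and with cells under 2000 UMIs left out 26. Against cluster 1, 18 of 25 medians moved under Louvain clustering. ITGA5, called higher against all other cells (0.163), fell to 0.102 without the filter and 0.114 without TMM (not called) and reversed to -0.085 under Louvain clustering and to -0.450, called lower, with other clusters weighted equally. HMOX1 against cluster 1 (0.351) reversed to -0.060 under Louvain clustering. Calls were also lost for CDKN1A (0.080 under Louvain clustering, 0.016 with equal weights), HES1 (-0.332), MYC (-0.055) and, against cluster 1, TAGLN (0.365) under Louvain clustering, TNFAIP6 with DESeq2 (0.825), and KCNJ8 with DESeq2 (1.654), without the filter (1.594), under Louvain clustering (1.014) and with equal weights (1.534). The difference between the libraries in the share of cluster 8 cells lay between 0.297 and 0.420 percentage points over its alternatives. Without the filter on low counts the median of all genes against all other cells shifted from 0.007 to -0.134. Under Louvain clustering no value could be given against cluster 5, since its counterpart held 15.2% of the deposited cluster 5 cells, and the medians against cluster 1 went from 0.070 to 0.903 for S phase genes and from -0.438 to 0.394, the opposite side, for G2/M genes. The 2 libraries come from 1 animal and from the same cells, PAX3 and PAX7 rest on few UMIs, and calls for lowly expressed genes are limited by depth.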
